A study of Xenopus laevis with 7 samples.

Results

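The ventx genes of Xenopus laevis, the African clawed frog, encode homeobox proteins (Vent, Vox and Xom in older usage) and were followed here in messenger RNA of early gastrulae. Members were the transcripts whose closest human match in the authors' table was VENTX or whose identifier began with ventx. Of 44421 transcripts, 4 met this rule, all through the human symbol: Xelaev18034615m, Xelaev18034617m, Xelaev18036901m and Xelaev18036903m. All 4 averaged 1 RPKM or more over the lips and entered the tests. All embryos were wild type, of the Nasco strain, and at stage 10.5, an early gastrula stage. The groups were whole embryos (1 library), dissected dorsal lips (3 libraries) and dissected ventral lips (3 libraries). Polyadenylated RNA was sequenced. Per the file headers, replicate numbers mark experiments 1 to 3, the whole embryo was compared with the lips in experiment 1, and 1 sequencing lane held the 4 lips of experiments 2 and 3.

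Ventx proteins are transcriptional repressors that act on the ventral side of the gastrula. Their genes are switched on by BMP signalling through Smad proteins, and the proteins in turn repress organizer genes such as goosecoid. The dorsal lip contains the Spemann organizer, which secretes BMP antagonists such as Chordin, and the ventral lip is the opposing center of BMP signalling. Xenopus laevis is allotetraploid, so that most genes exist as an L and an S copy, and the ventx genes are also repeated in tandem. A RefSeq gene table of a later assembly (v10.1) lists 10 ventx genes, 5 on chromosome 7L and 5 on chromosome 7S, in the same order on both. The authors' transcripts are those of assembly JGI9.1, and the sources used here do not pair their identifiers with the RefSeq names or with an L or S copy. The identifiers fall into 2 pairs of close numbers, Xelaev18034615m with Xelaev18034617m and Xelaev18036901m with Xelaev18036903m. Copies are therefore compared by identifier, without saying which are tandem neighbours and which are homeologs. The 4 transcripts are fewer than the 10 RefSeq genes, so sums over them may not cover all ventx RNA.

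The libraries held between 26438070 and 37999180 reads, recovered from the RPKM values (reads scaled to transcript length and to the mapped reads of the library), and the 4 ventx transcripts together took between 2034 of these reads, in dorsal lip replicate 3, and 44318, in ventral lip replicate 1. Nothing in the labels ties the replicates to separate clutches, and p-values therefore cover the spread among these libraries alone, part of which may be technical. The lips differed in their defining genes as labelled: the summed level of 9 organizer transcripts (chordin, gsc, noggin and OTX2) was 1152 to 1263 RPKM in dorsal and 4.52 to 12.9 RPKM in ventral lips, and that of 6 ventral transcripts (szl, bambi and wnt8a) was 16.1 to 29.7 and 226 to 424 RPKM. The handling of reads that fit several copies is not given in the sources used here, so differences between ventx copies are uncertain to that degree. In bulk samples, fewer cells of a type and less RNA per cell cannot be told apart.

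All 4 ventx transcripts were abundant in ventral lips and several-fold lower in dorsal lips. Xelaev18034617m, the copy with the highest ventral mean, measured 215, 163 and 196 RPKM in the ventral lips of experiments 1, 2 and 3 and 27.4, 26.6 and 16.9 RPKM in the dorsal lips. Xelaev18036903m measured 252, 134 and 139 RPKM in the ventral and 43.7, 30.0 and 15.3 RPKM in the dorsal lips. The lowest ventral lip of each of these copies stood far above its highest dorsal lip.

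Xelaev18034615m measured 236, 124 and 133 RPKM in the ventral lips of experiments 1, 2 and 3 and 26.6, 14.4 and 8.44 RPKM in the dorsal lips. Xelaev18036901m measured 197, 76.8 and 87.4 RPKM in the ventral and 45.6, 12.9 and 6.74 RPKM in the dorsal lips. The gap between groups was narrowest for this last copy, whose dorsal lip of experiment 1 reached 45.6 RPKM against 76.8 RPKM in its lowest ventral lip. The groups did not overlap for any of the 4 copies. Every ventral lip stood above every dorsal lip for 3.81% of the 16514 transcripts tested. By their mean in ventral lips the 4 copies ranked 251st (Xelaev18034617m), 294th (Xelaev18036903m), 326th (Xelaev18034615m) and 522nd (Xelaev18036901m) of these transcripts.

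**Figure D1:**
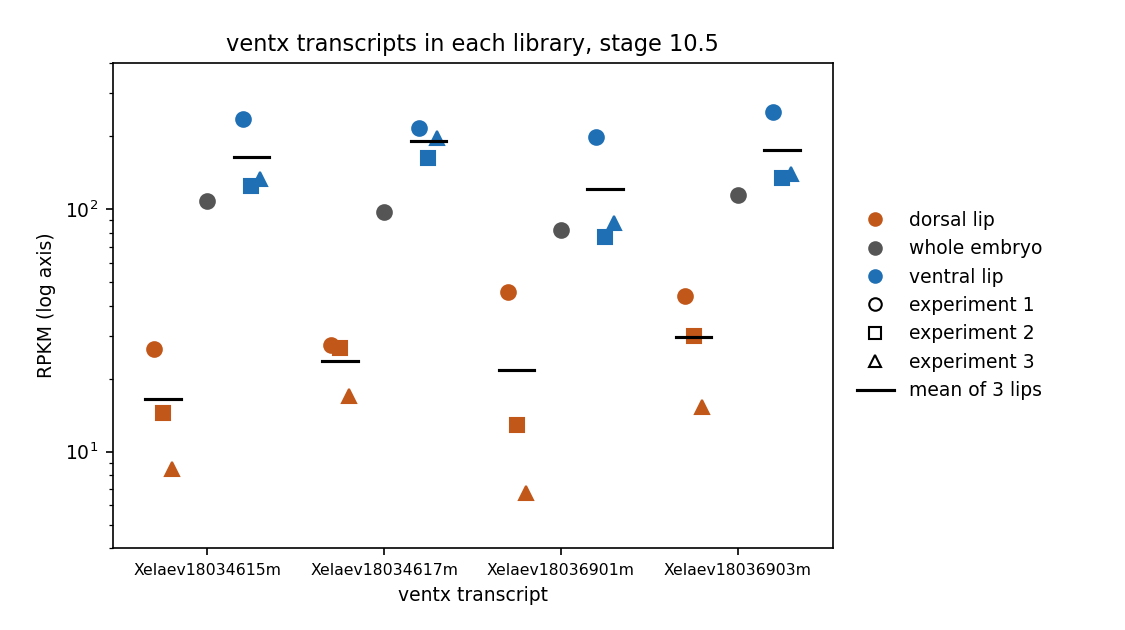
RPKM (log axis) of the 4 ventx transcripts in each of the 7 libraries. Colours mark dorsal lip, whole embryo and ventral lip, symbols mark the experiment, and bars are the mean of 3 lips. Dorsal values lie between 6.74 and 45.6 RPKM and ventral values between 76.8 and 252 RPKM, with the whole embryo between its own experiment's lips.

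The question of the main comparison is which transcripts separate the organizer side from the opposite side of the gastrula. Fold changes are dorsal minus ventral on the log2(RPKM + 0.5) scale, tested with limma over all transcripts. The means were 16.5 ± 9.26 RPKM dorsal and 164 ± 62.2 RPKM ventral (SD, n = 3 each) for Xelaev18034615m, a log2 fold change of -3.37 (SE 0.458). They were 23.6 ± 5.85 and 191 ± 26.5 RPKM for Xelaev18034617m (-3.01, SE 0.218). They were 21.7 ± 20.9 and 121 ± 66.8 RPKM for Xelaev18036901m (-2.74, SE 0.74). They were 29.6 ± 14.2 and 175 ± 66.6 RPKM for Xelaev18036903m (-2.60, SE 0.438). By size these 4 changes ranked 6th, 7th, 9th and 13th of 16514 from the most ventral transcript.

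Without regard to the experiment, Xelaev18034617m passed the limma test (adjusted p = 0.00711) and the other 3 copies did not, with adjusted p of 0.0837 for Xelaev18034615m, 0.173 for Xelaev18036903m and 0.683 for Xelaev18036901m. In this fit 0.0787% of all transcripts passed as higher in ventral lips. The pass of Xelaev18034617m was lost without ventral lip replicate 3 (limma adjusted p = 0.0758). The other 3 copies were 1.84 to 2.40 times higher in the ventral lip of experiment 1 than in the mean of experiments 2 and 3, and 1.93 to 4.64 times higher in the dorsal lip. For Xelaev18034617m these ratios were 1.20 and 1.26. When the experiment was added to the fit as a block, all 4 copies passed as lower in dorsal lips, at limma adjusted p of 0.00139 (Xelaev18034615m), 0.00189 (Xelaev18034617m), 0.0038 (Xelaev18036903m) and 0.0115 (Xelaev18036901m), against 2.34% of all transcripts called in this direction. In experiments 2 and 3 alone the limma adjusted p lay between 0.00025 and 0.00252 for the 4 copies, against 1.37% of all transcripts.

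The ventral excess was present in each experiment and differed in size between them. For Xelaev18034615m the ventral lip held 8.88, 8.61 and 15.8 times the dorsal level in experiments 1, 2 and 3. For Xelaev18034617m the ratios were 7.86, 6.11 and 11.6. For Xelaev18036901m they were 4.33, 5.95 and 12.98. For Xelaev18036903m they were 5.76, 4.46 and 9.07. Experiment 3 gave the largest ratio for all 4 copies, and the dorsal lip of that experiment held their lowest values. Xelaev18034615m had the largest ratio in every experiment. The dorsal lip still held 6.32% of the ventral level of this copy in experiment 3 and 23.1% of that of Xelaev18036901m in experiment 1, so ventx RNA was measured in every dorsal lip. The lowest dorsal value of all, 6.74 RPKM for Xelaev18036901m, rested on 368 reads, and its exact Poisson interval of 6.07 to 7.46 RPKM (95%) covers counting error only.

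**Figure D2:**
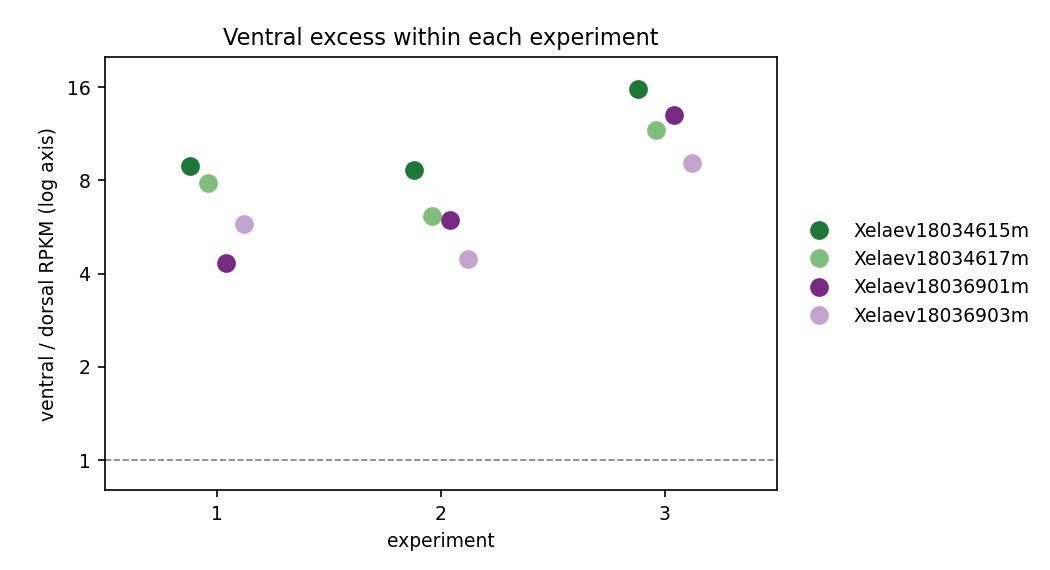
Ratio of ventral to dorsal RPKM (log axis) for each ventx transcript within each experiment, with a dashed line at 1. All 12 ratios lie between 4.33 and 15.8, and experiment 3 has the largest for each copy.

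The whole embryo holds all regions at once, and its library is to be read beside the lips of experiment 1. Xelaev18036903m measured 115 RPKM in the whole embryo (95% Poisson interval 112 to 118), Xelaev18034615m 108 RPKM (105 to 111), Xelaev18034617m 97.3 RPKM (94.6 to 100.2) and Xelaev18036901m 81.7 RPKM (79.6 to 83.9). The copies thus formed a shallow series, 1.40-fold from lowest to highest. The counting intervals of the 4 copies did not overlap, but with 1 library the order has no replicate check.

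Relative to the whole embryo, the ventral lip of experiment 1 was higher by a similar amount for each copy, with log2 differences of 1.13 (Xelaev18034615m), 1.14 (Xelaev18034617m), 1.27 (Xelaev18036901m) and 1.13 (Xelaev18036903m). All 4 were more than 2-fold higher, as were 0.515% of all transcripts. The dorsal lip of experiment 1 was graded instead, at -1.997 for Xelaev18034615m, -1.81 for Xelaev18034617m, -1.38 for Xelaev18036903m and -0.84 for Xelaev18036901m. The first 3 of these were more than 2-fold lower, as were 1.24% of all transcripts. On the linear scale from the dorsal to the ventral lip of that experiment, the whole embryo stood at 38.7% for Xelaev18034615m, 37.2% for Xelaev18034617m, 34.2% for Xelaev18036903m and 23.8% for Xelaev18036901m. Both lip differences use the same whole embryo library and have no replicate check. The lips of experiments 2 and 3 were prepared apart from this library. Their ventral lips stood at 0.939 to 2.02 times and their dorsal lips at 0.0783 to 0.274 times the whole embryo value over the 4 copies. The dorsal order of experiment 1 recurred there only in part. Xelaev18034615m was again the most lowered copy. Xelaev18036901m, the least lowered in experiment 1, stood at 0.158 and 0.0824 times in experiments 2 and 3. Xelaev18034617m was the least lowered there, at 0.274 and 0.174 times. None of the 4 copies is listed in the authors' deposited table of transcripts raised in both lips over the whole embryo, which they list as activated by the dissection and which asks for a rise above 2-fold in both lips.

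The sum of the 4 matched copies was 402 RPKM in the whole embryo. It was 900, 497 and 556 RPKM in ventral lips and 143, 83.9 and 47.4 RPKM in dorsal lips of experiments 1, 2 and 3. The make-up of this sum differed between libraries. In the whole embryo the copies took near-equal shares, from 20.4% for Xelaev18036901m to 28.6% for Xelaev18036903m, and in ventral lip replicate 1 from 21.9% to 27.9% for the same copies. In the ventral lips of experiments 2 and 3 Xelaev18034617m held the largest share with 32.8% and 35.3% and Xelaev18036901m the smallest with 15.4% and 15.7%. In the dorsal lip of experiment 1 Xelaev18036901m held the largest share, 31.8%, while in those of experiments 2 and 3 it held the smallest, 15.4% and 14.2%. Xelaev18034615m held 24.01% to 26.2% in ventral and 17.1% to 18.6% in dorsal lips. The shares of Xelaev18036903m lay the other way, at 24.98% to 27.9% in ventral and 30.5% to 35.7% in dorsal lips. The 2 groups did not overlap for either copy. They overlapped for Xelaev18034617m (23.9% to 35.3% in ventral and 19.1% to 35.7% in dorsal lips) and for Xelaev18036901m. Within a library the shares are bound to a common total, so that 1 share can rise only where others fall. These shares were not tested.

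**Figure D3:**
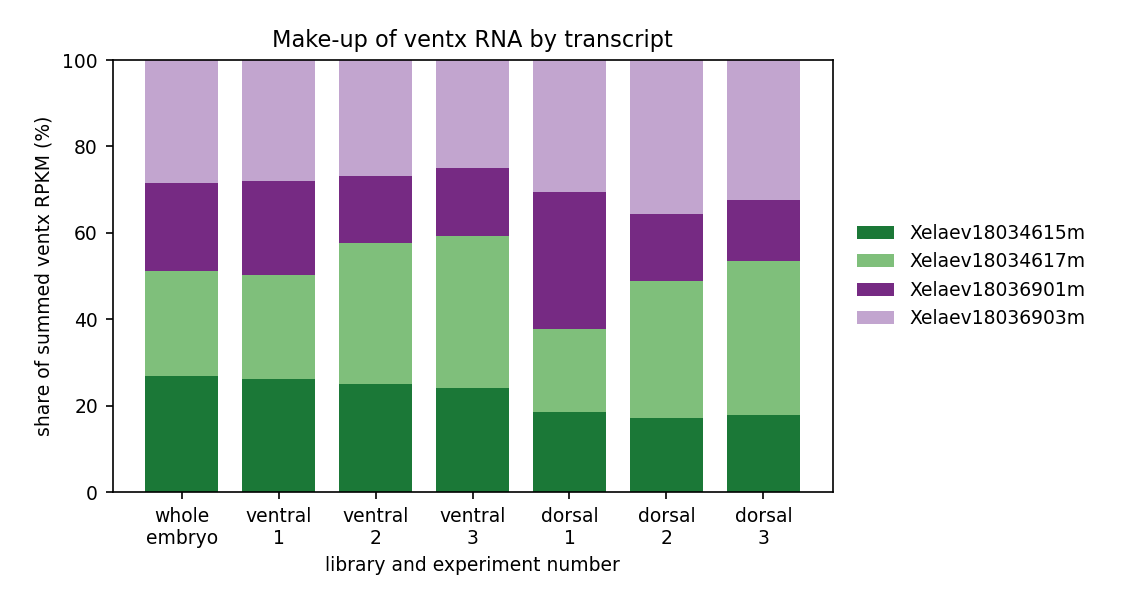
Share (%) of each ventx transcript in the summed RPKM of the 4, by library. Xelaev18034615m (dark green) holds 24.01% to 26.8% in ventral lips and the whole embryo and 17.1% to 18.6% in dorsal lips, while Xelaev18036901m (dark purple) is largest in dorsal lip 1, at 31.8%.

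A difference between copies in the size of the change was tested on the difference of their log2 values, for every pair of transcripts with the same human symbol in the table, 7620 pairs in all. The clearest case was Xelaev18034615m against Xelaev18036903m. The ratio of their RPKM values was 0.939 in the whole embryo and 0.938, 0.927 and 0.961 in the ventral lips of experiments 1, 2 and 3, but 0.609, 0.480 and 0.551 in the dorsal lips. Near-equal in the ventral lips and the whole embryo, the copies stood apart in the dorsal lips, where Xelaev18034615m was the lower in every experiment. The difference of their log2 fold changes was -0.77 (SE 0.131), with a limma adjusted p of 0.119 without and 0.0393 with the experiment block, and 0.0205 in experiments 2 and 3 alone, where 5.22% of all pairs passed.

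No other pair passed in these 3 fits. With the block the next smallest was Xelaev18034617m against Xelaev18036903m (difference -0.42, limma adjusted p = 0.0637), followed by Xelaev18034615m against Xelaev18034617m (-0.35, 0.148) and against Xelaev18036901m (-0.62, 0.16). The 2 remaining pairs, both with Xelaev18036901m, had differences of -0.27 and -0.15 and limma blocked adjusted p of 0.567 and 0.758. Without the block 0 of the 6 ventx pairs passed, 1 had an unadjusted limma p under 0.05, and 0.709% of all pairs passed. With the block 1 of 6 passed, against 2.09% of all pairs.

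In level over the 6 lips, which the RPKM scale gives per length, Xelaev18036903m and Xelaev18034617m stood highest and did not differ beyond their spread (log2 difference -0.02 for Xelaev18034617m minus Xelaev18036903m, SE 0.142, limma adjusted p = 0.892). Xelaev18034615m came next. It was lower than Xelaev18036903m by a log2 difference of -0.47 (SE 0.0655, limma adjusted p = 0.000863) and than Xelaev18034617m by -0.45 (SE 0.159, limma adjusted p = 0.0402). Xelaev18036901m came last. It was lower than Xelaev18036903m by -0.68 (SE 0.186, limma adjusted p = 0.0159) and did not differ beyond the spread from Xelaev18034615m (limma adjusted p = 0.268). Its difference from Xelaev18034617m passed with the block (limma adjusted p = 0.00364, a fit in which 91.9% of all pairs passed) but not without it (0.0894).

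By level 3 of the 6 ventx pairs passed, against 80.5% of all pairs of the same human symbol. The call between Xelaev18034615m and Xelaev18034617m was lost without dorsal lip replicate 2 (limma adjusted p = 0.117), dorsal lip replicate 3 (0.122), ventral lip replicate 2 (0.107) or ventral lip replicate 3 (0.12). The call between Xelaev18036901m and Xelaev18036903m was lost without dorsal lip replicate 2 (limma adjusted p = 0.0518), dorsal lip replicate 3 (0.0555) or ventral lip replicate 2 (0.052). Without dorsal lip replicate 1, Xelaev18036901m passed as lower than Xelaev18034615m (limma adjusted p = 0.0149) and Xelaev18034617m (0.00569) too. The order of levels did not hold in experiment 1. The ratio of Xelaev18034615m to Xelaev18034617m was 0.971 in its dorsal and 1.10 in its ventral lip, against 0.499 to 0.760 in the lips of experiments 2 and 3. In dorsal lip replicate 1, Xelaev18036901m was the highest copy.

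Across all 7 libraries the copies followed each other closely. Pearson's r of log2(RPKM + 0.5) was highest between Xelaev18034615m and Xelaev18036903m (0.995), which come from different number runs, and lowest between Xelaev18034617m and Xelaev18036901m (0.898). Within the number runs it was 0.977 (Xelaev18034615m and Xelaev18034617m) and 0.972 (Xelaev18036901m and Xelaev18036903m). These values describe 7 libraries that share the split between dorsal and ventral and between experiments, and no p is given.

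Among 10450 other transcripts averaging 5 RPKM or more in lips, the patterns most like that of Xelaev18034617m over the 7 libraries were those of 4 ventrally high transcripts and 1 nearly even one. They were dlx5.S, a homeobox gene of the non-neural ectoderm (r = 0.993), bambi.L, a BMP pseudoreceptor that is itself induced by BMP (0.992), wnt8a.S, a Wnt ligand of the ventral and lateral mesoderm (0.992), Xelaev18036545m, which has no human symbol (0.984), and ripk1.L, a kinase of cell death signalling (0.983). Of these, ripk1.L varied only between 9.61 and 11.7 RPKM. For both Xelaev18034615m (r = 0.996) and Xelaev18036903m (0.991) the closest transcript was Xelaev18023103m, matched to the zinc finger gene KLF4, which measured 57.1, 33.1 and 38.8 RPKM in ventral and 10.3, 8.44 and 5.48 RPKM in dorsal lips. For Xelaev18036901m it was Xelaev18012086m, matched to the BMP target ID3 (r = 0.984). That transcript shared the high dorsal value of experiment 1, at 77.6 RPKM against 18.2 and 15.2 RPKM in the dorsal lips of experiments 2 and 3.

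The BMP pathway around ventx is given by lists of its ligands and transducers, its extracellular regulators and its targets. Transcripts were matched by symbol, or by human match where only a number is given, so that paralogs can stand under 1 name. A transcript can also stand in more than 1 list, as those of bmp4 and szl do. The counts given for different lists are therefore not separate evidence. Among all transcripts 0.248% passed as higher in dorsal lips without and 2.37% with the block, beside the 0.0787% and 2.34% given for ventral lips. Of 24 tested ligand, receptor and Smad transcripts, 1 was higher in ventral and 2 in dorsal lips (limma without block), and 5 and 2 with the block, with a list median of -0.14 against -0.05 for all transcripts. The ligand bmp4.S measured 20.01, 19.3 and 21.1 RPKM in ventral and 10.7, 8.16 and 8.85 RPKM in dorsal lips. The ventral value moved little between experiments, and the groups did not overlap. Its log2 fold change was -1.09 (limma adjusted p = 0.0606, blocked 0.00448), and that of bmp4.L was -0.74 (limma adjusted p = 0.179, blocked 0.00925). A BMP7 transcript, Xelaev18018155m, was more abundant, at 312 to 585 RPKM in ventral and 214 to 377 RPKM in dorsal lips (-0.60, limma adjusted p = 1, blocked 0.00143). Its groups overlapped. The other tested BMP7 transcript, Xelaev18020685m, was lower in level, at 6.69 to 9.60 RPKM in ventral and 3.82 to 5.26 RPKM in dorsal lips, and did not pass (-0.79, limma adjusted p = 0.581, blocked 0.0553). Its groups did not overlap. The BMP family ligand admp2.L was higher in ventral lips (-2.68, limma adjusted p = 0.00601), and its relative admp, which is made in the organizer, in dorsal lips (admp.S 6.55, limma adjusted p = 0.00347; admp.L 5.36, 0.00307). The call of admp2.L was lost without ventral lip replicate 2 (limma adjusted p = 0.0669) or 3 (0.0758). The ligand bmp2 did not pass in either fit (bmp2.L -0.07, bmp2.S -0.09). Of the receptors only bmpr1a.1 passed, with the block (-0.31, limma blocked adjusted p = 0.0483). The transducing smad1.L stood at 76.97 to 123.003 RPKM in ventral and 51.9 to 117 RPKM in dorsal lips (-0.24, limma blocked adjusted p = 0.221). The fold changes of the 4 ventx transcripts, -2.60 to -3.37, were thus larger in size than those of the bmp4 and BMP7 transcripts named here. That of admp2.L (-2.68) lay within the ventx range. The differences of these ligands from ventx were not tested.

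Of 17 tested extracellular regulators, 2 passed as ventral and 5 as dorsal, and 3 and 9 with the block, with a list median of 2.68. The dorsal members were antagonists that bind BMP: chordin reached 222 to 240.5 RPKM in dorsal and 0.0845 to 0.244 RPKM in ventral lips (Xelaev18027420m), and noggin (nog.L) 31.3 to 44.6 and 0.156 to 0.2 RPKM. The lowest dorsal level of any ventx copy, by contrast, was 6.74 RPKM. The 2 ventral ones were copies of sizzled (szl.L -4.86, szl.S -4.63), a secreted inhibitor of Chordin-degrading proteases. The call of szl.L was lost without dorsal lip replicate 3 (limma adjusted p = 0.13) or ventral lip replicate 3 (0.121). That of szl.S held without dorsal lip replicate 1 (0.0199) and was lost without dorsal lip replicate 2 (0.115) or 3 (0.218) or ventral lip replicate 1 (0.0521), 2 (0.182) or 3 (0.277). With the block a copy of twisted gastrulation, which binds BMP and Chordin, joined them (Xetrov90016634m.S, -0.56, limma blocked adjusted p = 0.0448).

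Of 56 tested BMP targets and feedback transcripts, 7 passed as ventral and 1 as dorsal, and 25 and 4 with the block, with a list median of -1.03. By the smallest p the ventral members were Xelaev18001123m, matched to the zinc finger gene KLF2 (-2.32, limma adjusted p = 0.00116), bambi.L (-3.81, 0.00347) and wnt8a.S (-4.08, 0.0125). Those on the dorsal side were hes1.L, a Notch effector (1.59, limma adjusted p = 0.0136), its partner hes1.S (1.20, blocked 0.0345) and a GATA3 transcript (Xelaev18017847m, 1.997, blocked 0.0163). The call of wnt8a.S was lost without dorsal lip replicate 2 (limma adjusted p = 0.0531) or ventral lip replicate 2 (0.101) or 3 (0.115). That of hes1.L was lost without dorsal lip replicate 2 (0.0881) or 3 (0.134) or ventral lip replicate 2 (0.117) or 3 (0.146). Among the other classic BMP targets, both ID3 transcripts and both copies of the inhibitory smad7-like passed as ventral with the block. Both copies of smad6 did not pass (limma blocked adjusted p of 0.249 and 0.511). The changes of msx1.L, msx1.S, msx2.S and the tested cdx transcripts were negative, from -0.088 (cdx2.S) to -2.36 (msx1.S). None of them passed (limma blocked adjusted p of 0.104 to 0.904). Both GATA2 transcripts had the higher mean in dorsal lips, at 2.004 (Xelaev18023995m) and 1.55 (Xelaev18025905m). They did not pass either (limma blocked adjusted p of 0.206 and 0.108). The ventx fold changes of -2.60 to -3.37 lay between that of smad7-like.L (-1.79) and those of bambi.L (-3.81), wnt8a.S (-4.08) and szl.L (-4.86). The other bambi copy, bambi.S, changed less than any ventx copy (-2.15, limma blocked adjusted p = 0.0315), so bambi fell on both sides. The ID3 transcripts (-2.37 and -2.49) changed less as well. Transcripts within the ventx range included a second KLF2 transcript, Xelaev18006666m (-2.76), and dlx3.S (-2.67). These differences between genes were not tested.

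Organizer genes include targets that Ventx proteins repress in Xenopus. Of 33 tested transcripts, 13 passed as dorsal and 0 as ventral, and 23 and 1 did so with the block, with a list median of 3.99. The chordin transcripts and nog.L are also among the extracellular regulators above, and dlx5, named below, is also among the BMP targets. With each transcript counted once over all lists, 9 passed as ventral and 16 as dorsal without the block. Among the 33 organizer transcripts alone, 2 were higher in ventral lips at an unadjusted limma p under 0.05 without the block. The exception with the block was not.L, which encodes a notochord homeobox protein (-0.45, limma adjusted p = 0.0402 with the block). Of 13 tested transcripts of other NK-like and related homeobox genes, 1 was higher in ventral and 1 in dorsal lips, and 5 and 2 with the block. The ventral ones by p were dlx5.S (-2.28, limma adjusted p = 0.0152), dlx5.L (-2.69, blocked 0.000434) and dlx6.S (-1.07, blocked 0.0302), and the dorsal ones both copies of hhex (4.43 and 4.15), a gene of the anterior endoderm. The call of dlx5.S was lost without dorsal lip replicate 2 (limma adjusted p = 0.109) or 3 (0.108) or ventral lip replicate 2 (0.101) or 3 (0.0973). That of hhex.L held without ventral lip replicate 1 (0.00138) and was lost without dorsal lip replicate 1 (0.0662), 2 (0.129) or 3 (0.157) or ventral lip replicate 2 (0.0501) or 3 (0.15). Of 26 tested transcripts of pluripotency and early zygotic genes, 1 was higher in ventral and 2 in dorsal lips, and 3 and 6 with the block, with a list median of 0.30. The ventral one was klf5.S, a zinc finger gene (-1.23, limma adjusted p = 0.0303), and the dorsal ones were both copies of foxd3, a forkhead gene (foxd3.S 3.27, 0.00122; foxd3.L 3.46, 0.00711). The call of klf5.S was lost without any 1 of the 6 lips, at limma adjusted p of 0.0515 (without ventral lip replicate 1) to 0.307 (without ventral lip replicate 3). That of foxd3.L was lost without dorsal lip replicate 3 (0.0784) or ventral lip replicate 2 (0.0665) or 3 (0.0758). With all 6 lips and the block, klf5.S (limma blocked adjusted p = 0.00327) and foxd3.L (0.000583) passed. So did all 54 transcripts called without the block. The fits that leave out 1 lip had no block.

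**Figure D4:**
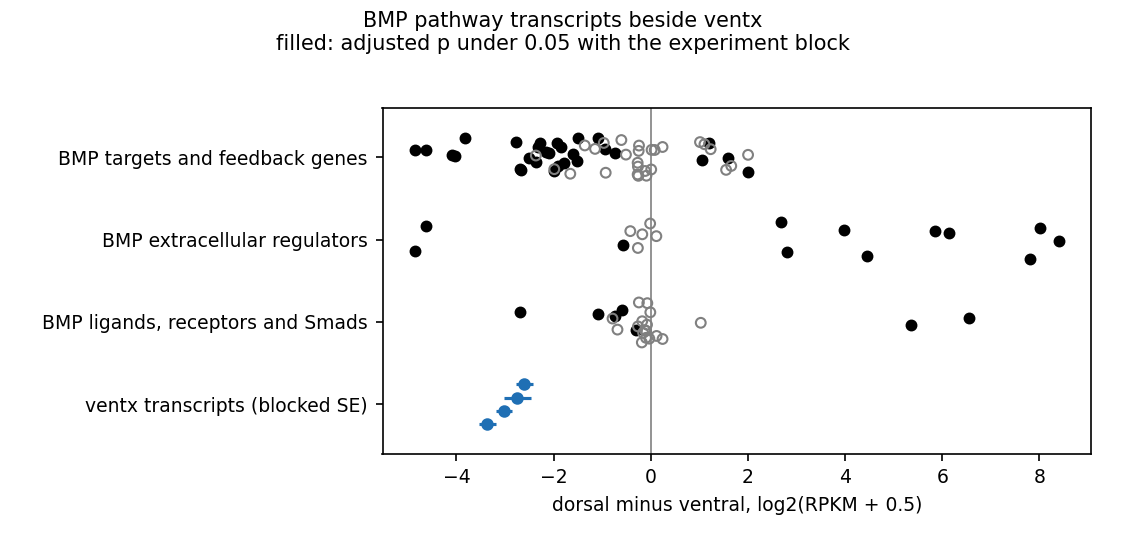
Dorsal minus ventral log2 fold change of the tested transcripts in 3 BMP lists and of the 4 ventx transcripts (blue, in the order of their identifiers from bottom to top, with the blocked SE as bars). Filled points passed limma with the experiment block; vertical scatter within a list is for display. The ventx values lie between -3.37 and -2.60, and the BMP targets have a median of -1.03.

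The summed markers of some other tissues differed between the lips as well. The summed level of 13 epidermal ectoderm transcripts was 65.6 to 83.8 RPKM in dorsal and 156 to 292 RPKM in ventral lips, with the highest value in ventral lip replicate 1, where ventx was also highest. That of 5 neural ectoderm transcripts was 233 to 337 RPKM in dorsal and 62.9 to 91.2 RPKM in ventral lips. That of 6 endoderm transcripts overlapped, at 65.6 to 114 and 86.3 to 98.6 RPKM, and so did that of 3 germ plasm transcripts, at 3.04 to 7.26 and 3.75 to 16.2 RPKM. In the endoderm and the epidermal lists 1 transcript each was at 0 in every lip. By limma with the block, in either direction, 6 of the 13 epidermal, 4 of the 5 neural, 2 of the 6 endoderm and 1 of the 3 germ plasm transcripts passed. These totals hold all matched transcripts, tested or not. In the same fit 777 of all 16514 tested transcripts passed, 2.34% as higher in ventral and 2.37% as higher in dorsal lips. The TFAP2A and foxi1 transcripts of the epidermal sum are also in the list of BMP targets, so that sum is not a separate readout. The part of epidermal or neural cells in the ventx difference was not tested.

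The authors' deposited tables hold the authors' own values for the 4 copies. All 4 copies are among the 94 of 44421 transcripts in the authors' deposited ventral table. Their ventral to dorsal ratios there were 11.3 (Xelaev18034615m), 8.36 (Xelaev18036901m), 8.24 (Xelaev18034617m) and 6.02 (Xelaev18036903m). These ratios were the 6th, 11th, 13th and 17th largest in it. The ratios and the authors' adjusted p rest on the lips of experiments 2 and 3 already compared above. They are therefore not separate evidence. The adjusted p in the authors' deposited table was smallest for Xelaev18034615m, at 1.59e-136, and largest for Xelaev18034617m, at 1.52e-22. In the authors' deposited ventral signature of 70 transcripts, which keeps 1 copy of each gene, Xelaev18036903m alone is listed, with a ratio of 5.89.

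The authors also deposited correlation coefficients of 40499 transcripts to chordin and to bambi over 26 samples. Per the file headers these include whole embryos of later stages, bisected embryos, dorsalized and ventralized embryos and lips. The kind of coefficient is not stated. In the authors' deposited table the coefficients to chordin were -0.518 (Xelaev18034617m), -0.372 (Xelaev18034615m), -0.334 (Xelaev18036903m) and -0.307 (Xelaev18036901m), so that all 4 ran against chordin. Xelaev18034617m was the 21st lowest of all transcripts, and Xelaev18036901m the 3507th lowest. The coefficients to bambi in the authors' deposited table were 0.728 (Xelaev18036903m), 0.665 (Xelaev18034617m), 0.556 (Xelaev18036901m) and 0.448 (Xelaev18034615m), the 81st, 256th, 952nd and 1896th highest. The copy with the largest ventral to dorsal ratio in lips, Xelaev18034615m, was thus the least tied to bambi of the 4. Bambi and the lips of this study are among the values behind these coefficients, which are not independent of the comparisons above.

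**Figure D5:**
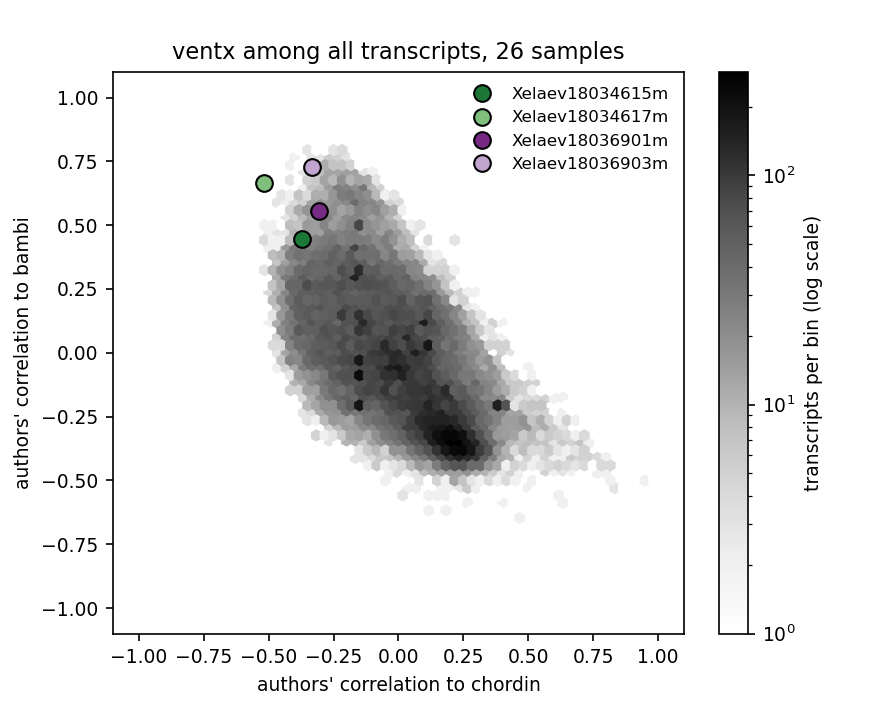
The authors' correlation coefficients to chordin (horizontal) and to bambi (vertical) over 26 samples, with all transcripts as grey bins (darker for more transcripts, log scale) and the 4 ventx transcripts as points. All 4 lie at negative chordin and positive bambi values, with Xelaev18034617m at -0.518 and 0.665.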

How the data were processed

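Messenger RNA was measured in 7 libraries. The authors deposited RPKM values per transcript of genome JGI9.1 in 1 table. The submitters' processing notes name TopHat2 2.09 and DESeq, without their roles. The deposited tables also hold the authors' adjusted p-value and ventral to dorsal ratio, both from experiments 2 and 3 per the file headers, and correlation coefficients, used as a score. 1 line each of the table of all transcripts and of the 2 correlation tables was not analysed here. A further ventx transcript could thus be missing.

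Dorsal and ventral lips were compared with limma 3.58.1 (R 4.3.3) on log2(RPKM + 0.5), with a trend of the variance on the mean. The 16514 transcripts averaging 1 RPKM or more in the 6 lips were tested, with Benjamini-Hochberg adjustment over all of them and a threshold of 0.05. Pairs of transcripts with the same human symbol (symbols with at most 20 tested transcripts) were fitted with limma on their difference, without this trend. Fits were tested on simulated data first. The simulated libraries were independent and had no experiment effect, so they do not show how the fits behave with the differences between experiments seen here. Whole reads were recovered from the RPKM steps of all 35326 transcripts above 0 (tolerance 0.001 reads). For transcripts with few reads the length is known only up to a factor, so the library totals are approximate. The mapped reads behind the scaling were 27083637 to 38903417 per library. Poisson intervals (95%) cover counting error only.

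Replicate numbers come from the sample titles and match the experiment numbers in the file headers. Deviations from the group means correlated at 0.926, 0.881 and 0.819 between same-numbered lips. Libraries of the same number were treated as pairs in the fits with the experiment block. Dorsal lip replicate 2 and ventral lip replicate 3 correlated at 0.839, and lips of experiment 1 correlated negatively with those of experiments 2 and 3. The fit without the pairing stayed the main one.

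All 4 ventx transcripts that met the rule are named. Of each list, the 3 with the smallest p in each direction among those past the test without or with the block could be named, and BMP ligands and chordin for their role. Others were chosen after their values were seen: the BMP7 transcripts, bmpr1a.1, smad1.L, ID3, smad6 and smad7-like. So were bambi.S, Xelaev18006666m, dlx3.S, msx1, msx2.S, the cdx transcripts and GATA2. The members and lists were chosen with earlier results of these data known. The list of pluripotency and early zygotic genes was left out for a time, after it was seen which of its symbols the table holds, and then restored. Alternatives were other pseudocounts, filters, quantile normalization, the experiment block, experiments 2 and 3 alone, voom on recovered reads and leaving out each lip. The 4 alternatives that join the block with another change were chosen after seeing the data.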

Additional observations from a re-analysis of the deposited data

How the results depend on the processing

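The 4 ventx fold changes kept their negative sign in all 18 fits, and Xelaev18034617m passed in 17 of them. With the replicate block, Xelaev18034615m, Xelaev18036901m and Xelaev18036903m passed too, at log2 changes of -3.37, -2.74 and -2.60, and so they did with the block and a pseudocount of 0.1 (-3.40, -2.78 and -2.62) or 1 (-3.32, -2.70 and -2.57), in experiments 2 and 3 alone without or with the block (-3.48, -3.06 and -2.64) and with voom and the block (-3.34, -2.58 and -2.58). Leaving out 1 lip gave -3.78 to -2.98 for Xelaev18034615m, -3.13 to -2.79 for Xelaev18034617m, -3.49 to -2.15 for Xelaev18036901m and -2.93 to -2.19 for Xelaev18036903m. The count of transcripts past the test moved from 54 to 777 with the block, 733 and 753 with the block and a pseudocount of 0.1 and 1, 698 in experiments 2 and 3, 1528 there with the block, 1636 with voom and the block, and 21 to 139 without 1 lip. List members higher in ventral and in dorsal lips moved from 9 and 16 to 34 and 35 with the block, 34 and 33 and then 35 and 35 with the block and a pseudocount of 0.1 and 1, 37 and 51 in experiments 2 and 3, 43 and 57 there with the block, 44 and 37 with voom and the block, and 2 to 10 and 11 to 30 without 1 lip. Ventx pairs past the test of change numbered 0, 1 with the block and 1 in experiments 2 and 3, and 0 without any 1 lip. Ventx pairs past the test of level numbered 3, 4 with the block, 5 in experiments 2 and 3, and 1 to 5 without 1 lip. In experiments 2 and 3, 6944 of all 7620 pairs passed by level. In experiments 2 and 3 the change of Xelaev18034617m minus Xelaev18036901m turned to 0.021 and the level of Xelaev18034617m minus Xelaev18036903m to 0.19. Without 1 lip these ranged from -0.64 to 0.35 and from -0.11 to 0.086, and the change of Xelaev18036901m minus Xelaev18036903m from -0.55 to 0.070. Over the 6 lips, 3 of the 5 transcripts most like Xelaev18034617m were shared with those over 7 libraries. The cause of these differences was not tested. The ventx comparisons rest on 3 lips a side and 1 whole embryo, and on 368 or more reads per copy and library.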

Other observations

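Ventral levels of 4 other homeobox transcripts that BMP signalling is known to induce are given for experiments 1, 2 and 3. The ventral level of msx1.S was 32.2, 1.87 and 2.63 RPKM, and that of cdx4.S was 9.80, 0.334 and 0.415 RPKM. For dlx3.S it was 16.03, 3.57 and 4.99 RPKM, and for dlx5.S 42.5, 30.0 and 28.9 RPKM. In dorsal lips dlx5.S measured 7.35, 6.83 and 5.38 RPKM and msx1.S 0.948, 0.743 and 0.492 RPKM. The dorsal level of dlx3.S was 1.29, 0.380 and 0.411 RPKM, and that of cdx4.S was 2.08, 0.761 and 0.884 RPKM. In experiments 2 and 3 cdx4.S was thus higher in the dorsal than in the ventral lip, but these values were all under 1 RPKM. Its change over the 6 lips did not pass (-0.27, limma blocked adjusted p = 0.792). These genes were chosen after their values were seen, and the differences between experiments were not tested.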
